A study of Mus musculus with 42 samples.

Results

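The genes described here encode 8 C-type lectin receptors of myeloid cells: Clec4a1, Clec4a2, Clec4a3, Clec4d, Clec4e, Clec4n, Clec7a and Clec12a. They were taken by name from a table of read counts for 26811 mouse genes, which lists Ensembl identifiers that were paired with gene symbols through the GENCODE annotation. All 8 were found, and all 8 were among the 16932 genes with enough reads to be tested. Every one lies on chromosome 6 of the mouse genome build GRCm38. Clec4a1, Clec4a3, Clec4a2, Clec4n, Clec4d and Clec4e follow each other in 1 cluster, and Clec12a and Clec7a lie in a second cluster further along the chromosome.

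C-type lectin receptors are proteins of the cell surface that bind sugars, lipids or material from dying cells. Mincle (Clec4e), MCL (Clec4d) and dectin-2 (Clec4n) associate with the FcRγ adaptor (Fcer1g), and dectin-1 (Clec7a) carries its own signaling motif. All of these lead through the kinase Syk and the adaptor Card9 to NF-κB and to cytokines such as Tnf and Il1b. DCIR (Clec4a2) and Clec12a instead carry an inhibitory motif that recruits phosphatases such as SHP-1 (Ptpn6). In tumors these receptors are known from macrophages, monocytes, granulocytes and dendritic cells.

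The study blocked the cytokine GM-CSF, the receptor subunit IL2RB or both to see how they bear on the response of tumors to an antibody against PD-1 (aPD1). MC38 colon carcinoma cells, a mouse line of C57BL/6 origin, were injected under the skin of female mice aged 8 to 12 weeks, and RNA of the whole tumor was sequenced. All mice were of 1 cross, CC075/UncJ x C57BL/6J F1 (CC75xB6), which stands for 1 genetic background. The labels name no difference between the groups other than the antibodies. Dosing with blocking antibodies or their isotypes, at intervals of 3 days, went on to a tumor size of 75 to 110 mm3. The mice then received 200 μg of aPD1 or of its isotype once, and their tumors were taken after 48 h. The isotype group (n = 5) received isotype antibodies only, and the aPD1 group (n = 6) received aPD1 after isotypes. The aPD1 + aGM-CSF group (n = 9, spelled aGMCSF in the labels) received 100 μg of aGM-CSF per dose before aPD1, and the aPD1 + aIL2RB group (n = 11) received 200 μg of aIL2RB per dose. The aPD1 + aGM-CSF + aIL2RB group (n = 11) received both blocking antibodies and is called the group with both antibodies below.

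Total counts per tumor ranged from 7155486 in replicate 4 of the group with both antibodies to 24101674, and the next lowest total was 15109227. Counts of the 8 genes ranged from 67 to 2908 per tumor. They were whole numbers in all tumors but 1, in which the count of Clec4a2 was not; reads of this gene can be divided with those of its close copy Clec4a4. Of the epithelial markers of the line, Epcam, Krt8, Krt18 and Krt19 were at 0 in some tumors, whereas the 12 macrophage markers were above 0 in every tumor. The replicate numbers fall into a first set of lower numbers (22 tumors) and a second set of higher numbers (20 tumors), which separated in part along the first principal component of the residuals (11.8% of the variance, absolute r with the set 0.712). The sets were chosen with earlier results of these data known, so this separation is a description and no test of them. The labels name no batch, and what the sets stand for is not known here.

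The start regions of the genes are shown because all 8 genes were lower in each blocking group than in aPD1 tumors. RefSeq start sites (GRCm38.p6) were found for 7 of the 8 genes, and the sequences run from 250 bases before to 50 bases after the start, 5′ to 3′ on the strand of the gene. Clec4n had no entry. Neighboring Clec4d (chr6:123261857-123262156, + strand) and Clec4e (chr6:123289822-123290121, − strand), which had the largest differences between aPD1 and isotype, are followed by Clec12a (chr6:129349994-129350293, + strand, inside the GENCODE gene) and the first of the 2 entries of Clec7a (chr6:129472730-129473029, − strand). Clec12a and Clec7a had the largest differences from aPD1 with aIL2RB and with both antibodies, respectively. Capitals mark matches on either strand to GAGGAA (PU.1), TTGCNNAA (C/EBP), TGANTCA (AP-1), TTCNNNGAA (STAT), GAAA with any 2 bases and then GAAA again (interferon response) or TATAAA. The long run of capitals at the start of Clec4d joins an interferon match and a PU.1 match that overlap.
Clec4d: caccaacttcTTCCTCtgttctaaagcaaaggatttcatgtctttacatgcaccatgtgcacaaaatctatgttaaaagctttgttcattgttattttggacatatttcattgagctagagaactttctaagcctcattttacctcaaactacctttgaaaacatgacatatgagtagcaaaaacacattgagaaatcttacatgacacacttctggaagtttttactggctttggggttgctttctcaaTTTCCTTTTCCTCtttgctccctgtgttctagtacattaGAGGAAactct
Clec4e: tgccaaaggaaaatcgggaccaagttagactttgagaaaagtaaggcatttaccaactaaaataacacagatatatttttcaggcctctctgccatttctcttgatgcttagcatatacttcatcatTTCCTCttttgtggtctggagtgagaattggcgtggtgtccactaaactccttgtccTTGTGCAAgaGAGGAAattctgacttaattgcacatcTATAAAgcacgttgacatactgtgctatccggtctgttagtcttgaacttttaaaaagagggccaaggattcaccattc
Clec12a: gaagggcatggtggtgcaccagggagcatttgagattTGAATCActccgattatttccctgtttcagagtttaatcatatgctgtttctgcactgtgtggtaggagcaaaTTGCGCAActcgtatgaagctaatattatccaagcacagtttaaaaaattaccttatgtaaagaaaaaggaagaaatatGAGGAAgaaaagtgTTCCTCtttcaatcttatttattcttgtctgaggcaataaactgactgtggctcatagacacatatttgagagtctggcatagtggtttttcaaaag
Clec7a: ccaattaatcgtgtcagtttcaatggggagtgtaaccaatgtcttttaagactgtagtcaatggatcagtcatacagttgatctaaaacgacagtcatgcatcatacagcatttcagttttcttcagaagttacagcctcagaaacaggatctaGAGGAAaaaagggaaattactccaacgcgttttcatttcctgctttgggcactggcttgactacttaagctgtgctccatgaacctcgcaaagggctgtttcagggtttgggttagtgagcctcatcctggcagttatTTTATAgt
GAGGAA, the core bound by the myeloid factor PU.1 (Spi1), was found in some entry of 6 of the 7 genes, all but Clec4a2. It also occurs in 28.3% of all 32851 mouse entries of this length. The C/EBP letters were found in Clec4e and Clec12a (10.8% of all entries), the AP-1 letters in Clec4a2 and Clec12a (7.81%) and the interferon letters in Clec4d only among the 7 (3.44%). The STAT letters were in Clec4a2 only among the 7 (8.30% of all entries), and TATAAA was in Clec4a2, Clec4e and Clec7a (13.6%). A match describes the letters of this window and shows no binding.

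Levels are given as CPM, the read counts scaled to 1 common library size after TMM normalization for library composition. Differences are log2 fold changes ± SE from edgeR, with p-values adjusted over all 16932 genes and a threshold of 0.05. In whole tumors, fewer cells of a type and less RNA per cell cannot be told apart. The labels call the tumors biological replicates without naming mice, and all p-values measure the spread between these tumors.

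Clec4e (Mincle, ENSMUSG00000030142, chromosome 6, 123281789 to 123289870, − strand) had the largest difference between aPD1 and isotype of the 8 genes. Its level in the isotype tumors was 5.33, 8.81, 7.86, 10.0 and 7.24 CPM. In aPD1 tumors it ranged from 9.84 through a median of 20.9 to 31.5 CPM. All aPD1 tumors but the lowest, replicate 2, lay above every isotype tumor. The level of Clec4e was 4.45 to 10.3 CPM (median 7.49) in aPD1 + aGM-CSF, 5.05 to 18.5 CPM (median 6.25) in aPD1 + aIL2RB and 3.47 to 19.4 CPM (median 7.21) with both antibodies. The medians of these groups thus lay close to the isotype level, and each group overlapped the aPD1 group through its highest tumors. Clec4e rose by 1.46 ± 0.36 from isotype to aPD1 (edgeR, adjusted p = 0.0104). Against aPD1 it was lower, at -1.57 ± 0.31 with aGM-CSF, -1.30 ± 0.29 with aIL2RB and -1.39 ± 0.29 with both (edgeR, adjusted p = 0.000607, 0.000571 and 0.000325).

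Clec4d (MCL, ENSMUSG00000030144, 123262111 to 123275265, + strand), the partner of Mincle at the cell surface, had the widest spread among the isotype tumors relative to its mean. Its level there was 4.06, 6.62, 10.1, 16.9 and 13.7 CPM, lower in replicates 1 and 2 than in the other 3 tumors. The aPD1 tumors ranged from 8.40 through 25.03 to 48.5 CPM, and all but replicate 2 lay above the isotype tumors. Levels were 5.42 to 11.8 CPM (median 7.62) with aGM-CSF, 4.298 to 18.7 CPM (median 9.25) with aIL2RB and 3.49 to 29.5 CPM (median 10.1) with both antibodies. Clec4d rose by 1.35 ± 0.44 under aPD1 (edgeR, adjusted p = 0.042). It was lower than in aPD1, at -1.69 ± 0.37, -1.46 ± 0.35 and -1.32 ± 0.35 in the 3 blocking groups in the same order (edgeR, adjusted p = 0.0017, 0.0012 and 0.0035). Each blocking group overlapped the aPD1 group.

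Clec4n (dectin-2, ENSMUSG00000023349, 123229843 to 123247021, + strand) binds sugars of the mannose type. It was at 27.1, 21.8, 20.4, 23.6 and 22.8 CPM in the isotype tumors, a narrow range. In aPD1 tumors it ran from 21.2 through 36.3 to 59.3 CPM, and replicate 6 alone fell within the isotype range. With aGM-CSF it lay between 13.1 and 18.97 CPM (median 15.8), below every aPD1 and every isotype tumor. With aIL2RB it ranged from 15.5 to 29.3 CPM (median 24.7), around the isotype level, and with both antibodies from 10.2 to 23 CPM (median 17.1). Clec4n rose by 0.73 ± 0.20 under aPD1 (edgeR, adjusted p = 0.0182). It was lower than in aPD1, at -1.27 ± 0.17 with aGM-CSF, -0.82 ± 0.16 with aIL2RB and -1.28 ± 0.16 with both (edgeR, adjusted p = 2.4e-05, 0.00016 and 3.2e-07).

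Clec7a (dectin-1, ENSMUSG00000079293, 129461591 to 129472779, − strand), the receptor for β-glucan, is annotated as a polymorphic pseudogene in the GENCODE release used for coordinates. Its level in the isotype tumors was 61.0, 67.4, 43.4, 42.2 and 50.1 CPM. In aPD1 tumors it ranged from 46.3 through 67.9 to 181 CPM, with replicate 1 above the other 5 tumors, of which the next reached 87.0 CPM, and the groups overlapped. Levels were 23.5 to 42.6 CPM (median 29.6) with aGM-CSF, 14.8 to 46.9 CPM (median 33.3) with aIL2RB and 5.95 to 44.3 CPM (median 23.6) with both antibodies. No tumor of the aPD1 + aGM-CSF group or of the group with both antibodies reached the lowest aPD1 tumor. The difference between aPD1 and isotype was 0.66 ± 0.38 and did not pass the threshold (edgeR, adjusted p = 0.284). Without aPD1 replicate 1 it was 0.29 ± 0.37 (edgeR, adjusted p = 0.704). Clec7a was lower than in aPD1, at -1.46 ± 0.33 with aGM-CSF, -1.52 ± 0.31 with aIL2RB and -1.86 ± 0.31 with both (edgeR, adjusted p = 0.0022, 0.0002 and 1.8e-05), and at -1.09, -1.15 and -1.49 without aPD1 replicate 1 (adjusted p = 0.0227, 0.0045 and 0.00037).

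Clec4a2 (DCIR, ENSMUSG00000030148, 123106428 to 123143999, + strand), an inhibitory receptor, was at 16.4, 21.3, 19.8, 22.5 and 27.4 CPM in the isotype tumors. The aPD1 tumors ranged from 19.4 through 31.3 to 50.2 CPM and overlapped them. Levels were 15.7 to 21.01 CPM (median 18.96) with aGM-CSF, 10.7 to 19.6 CPM (median 14.8) with aIL2RB and 10.2 to 34.2 CPM (median 14.6) with both antibodies. All 3 ranges crossed that of the aPD1 tumors, of which replicate 2 was the lowest. The difference of 0.63 ± 0.21 between aPD1 and isotype missed the threshold (edgeR, adjusted p = 0.0543), and passed it with DESeq2 (adjusted p = 0.0285). Clec4a2 had the smallest fall with aGM-CSF and with both antibodies among the 8 genes, at -0.83 ± 0.18 and -0.99 ± 0.17, and fell by 1.12 ± 0.17 with aIL2RB (edgeR, adjusted p = 0.0018, 3.4e-05 and 4.4e-06).

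Clec12a (ENSMUSG00000053063, 129342691 to 129365303, + strand), the other inhibitory receptor, recognizes uric acid crystals of dead cells. It was at 29.2, 44.9, 37.5, 37.9 and 38.3 CPM in the isotype tumors and ranged from 47.9 through 65.2 to 81.7 CPM in the aPD1 tumors, with no overlap. With aGM-CSF it was at 22.6 to 35.5 CPM (median 32.8), and with aIL2RB at 12.9 to 29.5 CPM (median 17.2). Both of these groups lay wholly below the aPD1 tumors. With both antibodies the level was 9.19 to 61.8 CPM (median 18.6), and replicate 1 of that group reached into the aPD1 range. The difference from isotype to aPD1 was 0.78 ± 0.28 (edgeR, adjusted p = 0.073) and did not pass the threshold in spite of the separate ranges. Clec12a was lower than in aPD1, at -1.07 ± 0.24 with aGM-CSF, -1.78 ± 0.23 with aIL2RB and -1.55 ± 0.23 with both (edgeR, adjusted p = 0.0022, 3e-07 and 3e-06).

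Clec4a1 and Clec4a3 are further genes of the DCIR family. Clec4a1 (ENSMUSG00000049037, 122921848 to 122934619, + strand) was at 27.1, 44.96, 42.2, 51.1 and 50.9 CPM in the isotype tumors. It ranged from 54.2 through 77.6 to 119.9 CPM in aPD1, with no overlap between the groups. Clec4a1 was at 29.2 to 46.3 CPM (median 39.04) with aGM-CSF, 13.8 to 42.4 CPM (median 20.9) with aIL2RB and 11.9 to 78.3 CPM (median 20.4) with both antibodies. The aPD1 + aGM-CSF and aPD1 + aIL2RB tumors all lay below the lowest aPD1 tumor. Clec4a1 was 0.92 ± 0.33 higher in aPD1 than in isotype (edgeR, adjusted p = 0.0676), which missed the threshold. It was lower than in aPD1, at -1.08 ± 0.28, -1.78 ± 0.26 and -1.47 ± 0.26 with aGM-CSF, aIL2RB and both (edgeR, adjusted p = 0.007, 2.6e-06 and 4.7e-05).

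Clec4a3 (ENSMUSG00000043832, 122952515 to 122969875, + strand) was at 19.7, 26.8, 21.6, 25.4 and 25.3 CPM in the isotype tumors. In aPD1 tumors it ranged from 33.9 through 43.5 to 67.0 CPM, above all of them. With aGM-CSF its level was 15.3 to 26.5 CPM (median 24.4), with aIL2RB 9.21 to 24.6 CPM (median 15.1) and with both antibodies 8.93 to 48.8 CPM (median 14.7). Only the last of these groups overlapped the aPD1 tumors. Clec4a3 rose by 1.02 ± 0.29 under aPD1 (edgeR, adjusted p = 0.0238). Against aPD1 it was lower, at -1.08 ± 0.25, -1.69 ± 0.24 and -1.36 ± 0.24 in the 3 blocking groups (edgeR, adjusted p = 0.0028, 1e-06 and 3.3e-05).

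**Figure D1:**
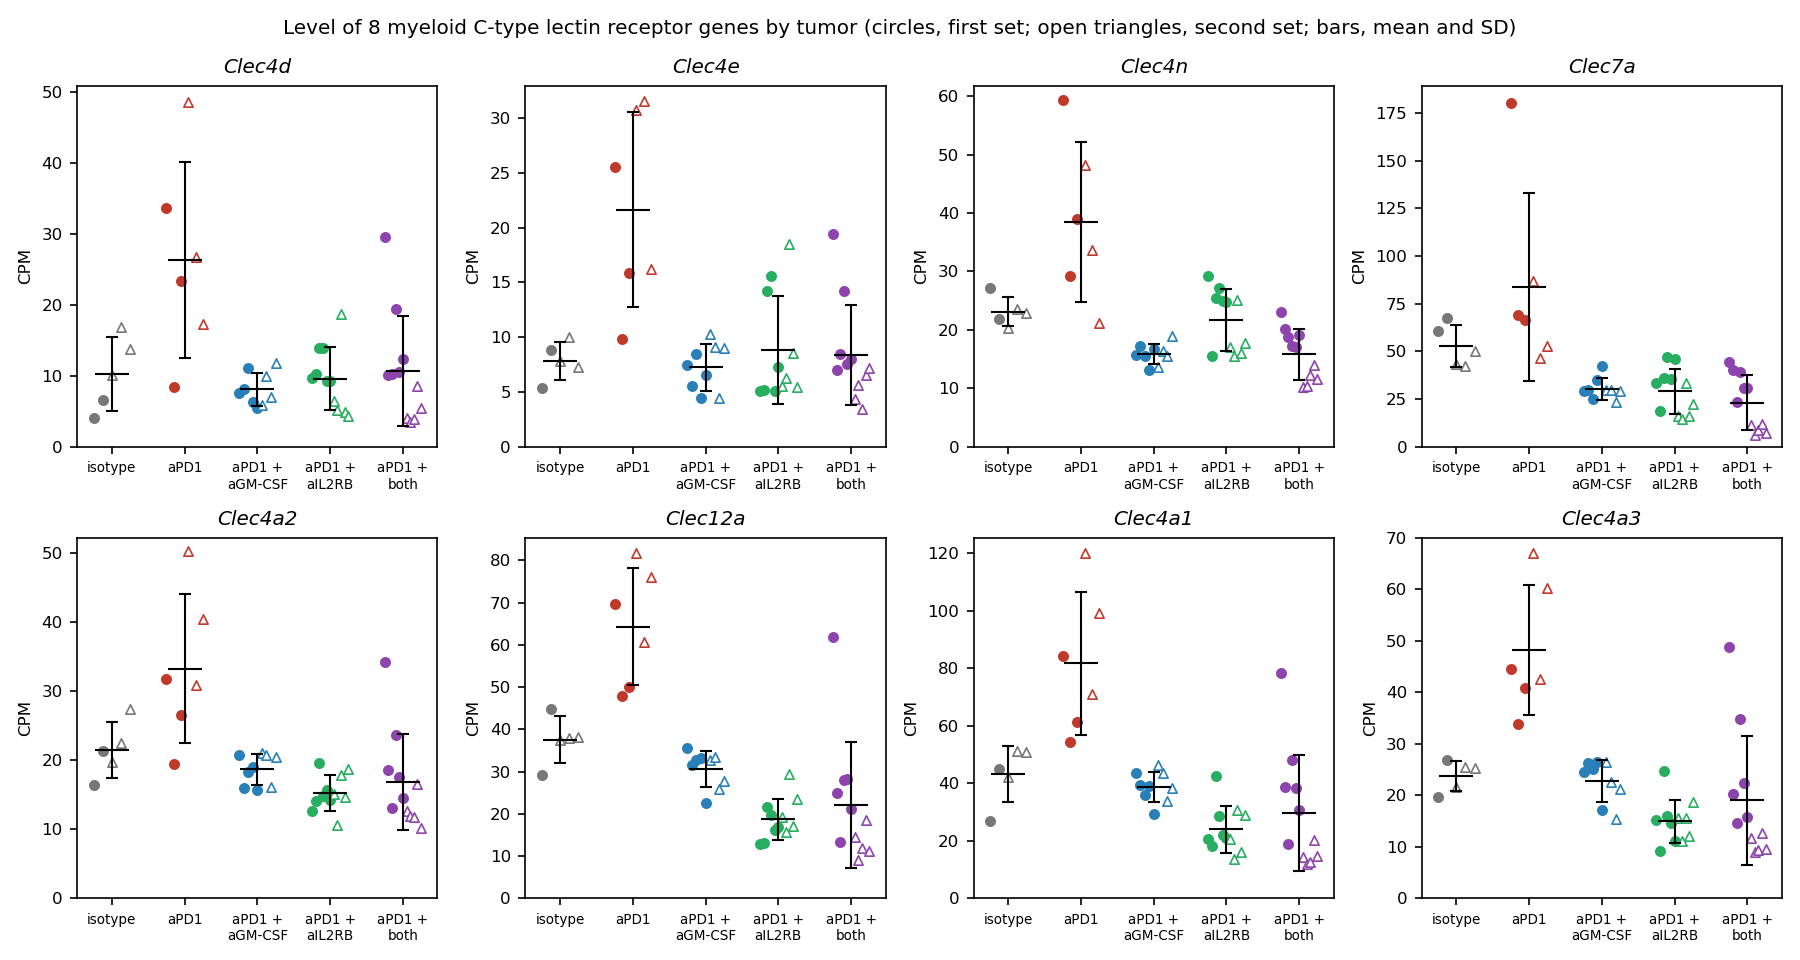
Level in CPM (vertical axes, from 0) of each gene in each of the 42 tumors by treatment group. Filled circles are tumors of the first set of replicate numbers and open triangles those of the second set, and bars give the group mean and SD. The aPD1 group is the highest by mean for all 8 genes, for example 81.7 CPM for Clec4a1 and 21.6 CPM for Clec4e.

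The order of the group means was alike in the DCIR family and Clec12a. For Clec4a1, Clec4a2, Clec4a3 and Clec12a it ran from aPD1 through isotype, aPD1 + aGM-CSF and both antibodies to aPD1 + aIL2RB, for example 81.7, 43.2, 38.8, 29.7 and 23.9 CPM for Clec4a1. Replicate 1 was the highest tumor of the group with both antibodies for each of these genes. By median, that group lay below aPD1 + aIL2RB for Clec4a1 (20.4 and 20.9 CPM), Clec4a2 (14.6 and 14.8) and Clec4a3 (14.7 and 15.1). For Clec12a its median lay above (18.6 and 17.2 CPM). For Clec7a the lowest mean was with both antibodies (23.2 CPM), and for Clec4n the means with aGM-CSF and with both were 15.9 and 15.8 CPM. Clec4d and Clec4e were at 7.27 to 10.7 CPM in every group but aPD1. Among neighbors in these orders, only aPD1 and the group next to it passed the test, for Clec4a3, Clec4d, Clec4e and Clec4n. Per kilobase of exon, which allows genes to be compared, the mean in aPD1 tumors was highest for Clec4a1 (52.4 CPM per kb), followed by Clec4a3 (36.3), Clec7a (31.8) and Clec4n (27.1), and lowest for Clec4e (4.35).

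Under aPD1 alone, 4 of the 8 receptor genes were higher than with isotype: Clec4e, Clec4d, Clec4n and Clec4a3. This count stands beside 1045 of the 16932 genes tested (6.17%). The differences of the other 4 genes were 0.92 for Clec4a1, 0.78 for Clec12a, 0.66 for Clec7a and 0.63 for Clec4a2, and whether they differ from those of the called genes was not tested. The median difference of the 8 genes was 0.85, against -0.0023 over all genes tested. The groups did not overlap for Clec4a1, Clec4a3 and Clec12a, and 3.38% of all genes were higher in aPD1 without overlap.

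Of the calls under aPD1, that of Clec4e held without each of the 11 tumors in turn (edgeR, adjusted p up to 0.0367). Clec4n missed the threshold without aPD1 replicate 1 or 4 (adjusted p = 0.0733 and 0.0634), and Clec4a3 without isotype replicate 1, 3 or 4 or aPD1 replicate 4 or 6 (adjusted p = 0.061, 0.0537, 0.0513, 0.0792 and 0.0561). Clec4d missed it without aPD1 replicate 1, 4 or 5 or isotype replicate 1, 2 or 3 (adjusted p = 0.0787, 0.148, 0.0632, 0.119, 0.106 and 0.0769). It also missed the threshold with a filter of a total of at least 5 counts (edgeR, adjusted p = 0.0546) and with the isotype and aPD1 tumors alone in the fit (adjusted p = 0.0563). In that fit of 2 groups Clec4a1 and Clec12a passed (edgeR, adjusted p = 0.0145 and 0.00678), which made 5 genes beside 6.77% of all genes. Clec4a2 passed with the set of replicate numbers as a term, by DESeq2 and with a filter of at least 10 counts in every tumor (adjusted p = 0.0491, 0.0285 and 0.0377). Clec4a2 passed without aPD1 replicate 2 or 3 or isotype replicate 5 (adjusted p = 0.0162, 0.0374 and 0.0392), and Clec4a1 and Clec12a passed without aPD1 replicate 2 (adjusted p = 0.0421 and 0.0487). Leaving out aPD1 replicate 4 thus left 1 gene called. There were 2 when aPD1 replicate 1, isotype replicate 1 or isotype replicate 3 was absent, and 7 when aPD1 replicate 2 was, the lowest aPD1 tumor for 6 of the genes.

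With each blocking antibody, all 8 receptor genes were lower than in aPD1 tumors. Of all genes tested, 8.75% were lower with aGM-CSF, 14.5% with aIL2RB and 14.3% with both antibodies. The median difference of the 8 genes was -1.18 with aGM-CSF, -1.49 with aIL2RB and -1.37 with both, against medians of 0.0066, 0.0036 and 0.011 over all genes. The 3 comparisons share the 6 aPD1 tumors and are not independent of each other. Every one of these calls was kept without each single tumor in turn. The blocking group lay wholly below aPD1 for Clec4a1, Clec4a3, Clec4n, Clec7a and Clec12a with aGM-CSF (2.20% of all genes), for Clec4a1, Clec4a3 and Clec12a with aIL2RB (2.99%) and for Clec7a with both antibodies (0.827%).

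**Figure D2:**
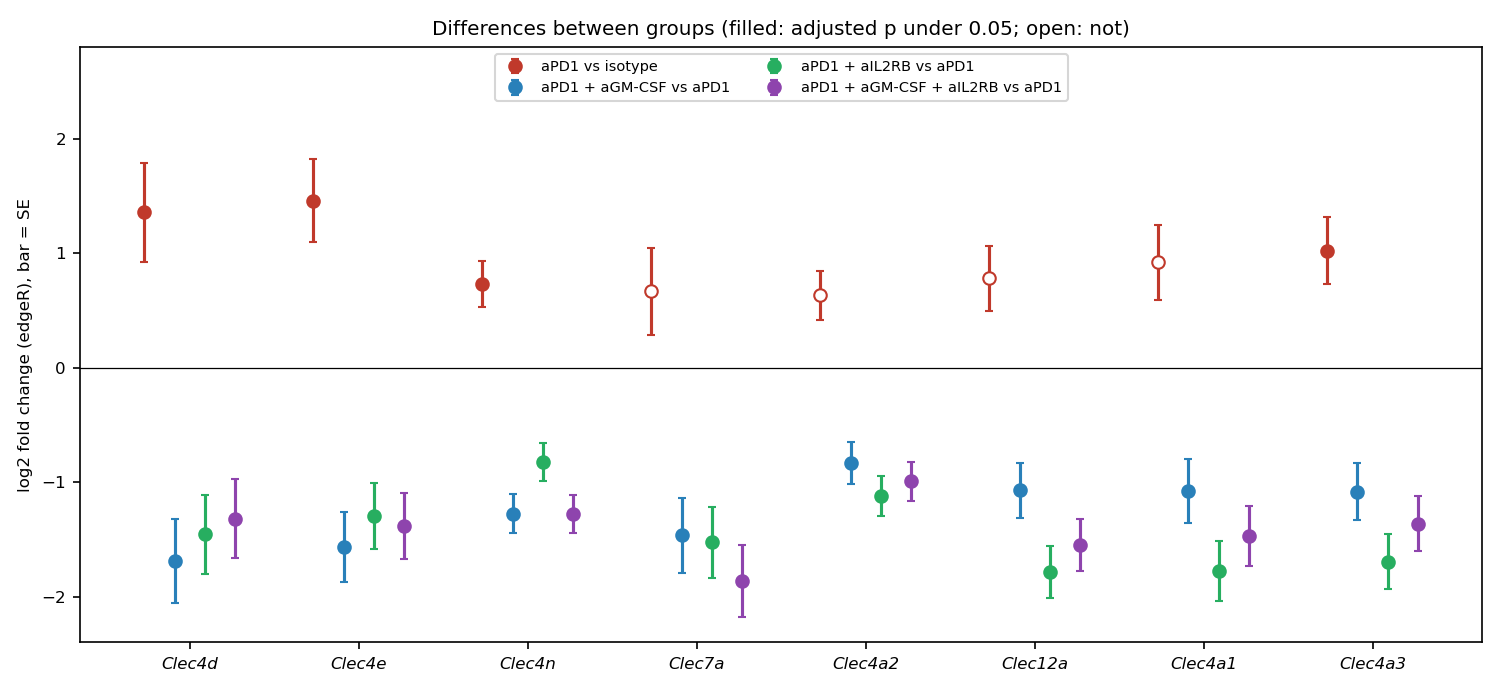
Log2 fold change (vertical axis) of each receptor gene for aPD1 against isotype and for each blocking group against aPD1, with the SE from edgeR as bars. Filled points passed an adjusted p of 0.05. The points for aPD1 against isotype lie between 0.63 and 1.46, and all points of the blocking groups lie between -1.86 and -0.82.

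Against the isotype tumors, the aPD1 + aGM-CSF group had no receptor gene that passed the threshold. By edgeR 0 of the 8 were called and 2 had an unadjusted p under 0.05, Clec4n (-0.54 ± 0.18) and Clec7a (-0.80 ± 0.34). DESeq2 called 0 of the 8 as well. Over all genes edgeR called 0, and 938 had an unadjusted p under 0.05, a share of 5.54% beside the 5% that would be found with no difference at all (adjusted p = 0.787 for Clec4n). Clec4n was lower in each of the 9 aPD1 + aGM-CSF tumors than in each isotype tumor, which held for 0.154% of all genes. With these 2 groups alone in the fit, Clec4n and Clec7a were lower (-0.55 and -0.81, edgeR, adjusted p = 0.0323 for each), as were 3 genes in all of the 15526 tested in that fit.

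With aIL2RB, 1 receptor gene was lower than with isotype, as were 1.51% of all genes. This was Clec12a, with means of 18.7 CPM and 37.5 CPM and a difference of -1.005 ± 0.24 (edgeR, adjusted p = 0.0148). Its call was lost without isotype replicate 2 (adjusted p = 0.0536). Clec4a1 was added without isotype replicate 1 or aPD1 + aIL2RB replicate 3 (adjusted p = 0.0497 and 0.0451). With the 2 groups compared alone in the fit, 4 genes were lower, as Clec4a1, Clec4a3 and Clec4a2 were added (edgeR, adjusted p = 0.0281, 0.0312 and 0.0395), beside 1.47% of all genes. With the set of replicate numbers as a term there were 3, as Clec7a and Clec4a1 were added (adjusted p = 0.0106 and 0.0491), beside 2.1% of all genes. The second set alone gave 4, Clec4a1, Clec7a, Clec12a and Clec4a3, beside 0.783% of its genes, and the first set alone gave 0 (edgeR, 3 at an unadjusted p under 0.05; DESeq2 was not run within sets).

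With both antibodies, Clec7a, Clec12a and Clec4n were lower than with isotype, beside 4.51% of all genes. The differences were -1.20 ± 0.33, -0.77 ± 0.25 and -0.55 ± 0.18 (edgeR, adjusted p = 0.0181, 0.0381 and 0.0399). Clec7a missed the threshold without isotype replicate 2 only (adjusted p = 0.0655). Clec12a missed it without isotype replicate 2, 3, 4 or 5 or replicate 3, 6, 7, 8, 9 or 11 of the group with both antibodies (adjusted p from 0.0514 to 0.114). Clec4n missed it without isotype replicate 1, 2, 4 or 5 or replicate 7, 8, 9 or 11 of that group (adjusted p from 0.0524 to 0.106). With these 2 groups alone in the fit, Clec7a and Clec12a missed it (edgeR, adjusted p = 0.0572 and 0.141), and 3.6% of all genes were lower. The second set alone gave 7 genes, all but Clec4e, beside 6.52% of its genes. The number of genes called was 0 without isotype replicate 2, and 5 without replicate 1 of the group with both antibodies, where Clec4a1 and Clec4a2 were added (adjusted p = 0.0264 and 0.0279).

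Between the 3 blocking groups none of the 8 genes passed the threshold by edgeR, and DESeq2 called none. At an unadjusted p under 0.05 there were 4 of 8 between aIL2RB and aGM-CSF, 1 between both antibodies and aGM-CSF and 1 between both and aIL2RB, beside 13.5%, 17.3% and 7.16% of all genes. The first 4 include Clec12a, with means of 18.7 CPM under aIL2RB and 30.6 CPM under aGM-CSF (-0.71 ± 0.21, adjusted p = 0.0749), and Clec4n, which lay the other way with 21.7 and 15.9 CPM (0.45 ± 0.15, adjusted p = 0.133). Without aPD1 + aIL2RB replicate 9 the difference of Clec12a passed the threshold (adjusted p = 0.0299). Without replicate 1 of the group with both antibodies, Clec12a was also lower with both than with aGM-CSF (-0.77, edgeR, adjusted p = 0.0045). With the 2 groups compared alone in the fit, 4 genes were called between aIL2RB and aGM-CSF: Clec4a1, Clec4a3 and Clec12a, which were lower, and Clec4n, which was higher (edgeR, adjusted p = 0.00946, 0.0162, 0.00133 and 0.0372). Of all genes, 1.92% were lower and 1.22% higher in that fit. Clec4n alone was called in the first set of replicate numbers (edgeR, adjusted p = 0.0307), where 0.885% of all genes were higher. In the second set, 5 genes were lower with both antibodies than with aGM-CSF and 2, Clec7a and Clec12a, were lower than with aIL2RB (edgeR, adjusted p = 0.0217 and 0.0396), beside 4.93% and 1.51% of all genes.

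The fall with both antibodies was smaller than the sum of the falls with each, as measured by the interaction term of the model. This term is the level with both antibodies plus that in aPD1 minus those of the groups with 1 antibody, on the log2 scale. It was above 0 for all 8 genes and passed the threshold for 7 of them, beside 5.29% of all genes called in this direction. The values that passed ranged from 0.82 ± 0.23 for Clec4n to 1.83 ± 0.48 for Clec4d (edgeR, adjusted p = 0.0197 and 0.0143). For Clec7a it was 1.12 ± 0.43 (adjusted p = 0.0925). Without aPD1 replicate 4 the number fell to 4, as Clec4d, Clec4e and Clec4n missed the threshold (adjusted p = 0.0567, 0.0528 and 0.06). Clec4n also missed it without aPD1 replicate 1 (adjusted p = 0.0646), and Clec7a passed without replicate 8 of the group with both antibodies (adjusted p = 0.0473). With the replicate number as a block, 4 of the 8 genes were called, beside 2.76% of all genes. In the first and the second set alone, 1 gene was called in each, beside 0.0862% and 4.14% of all genes. The term was also called above 0 for 9 of 12 macrophage markers (median 0.71) and for the leukocyte gene Ptprc (1.12 ± 0.28, edgeR, adjusted p = 0.01). It was called above 0 for 3 of 9 markers of Ly6C monocytes, 1 of 6 granulocytic markers, 1 of 6 of type 2 dendritic cells, 1 of 5 of plasmacytoid dendritic cells, 2 of 8 of T or NK cells, 1 of 5 of B cells and 2 of 6 of fibroblasts, and below 0 for Fn1, Dcn and Shisal2b of the Ly6C monocyte, fibroblast and MC38 lists. By edgeR it was called for 0 of 6 markers of type 1 dendritic cells (3 at an unadjusted p under 0.05; DESeq2 called 0) and 0 of 5 of endothelial cells (2 at an unadjusted p under 0.05; DESeq2 called 1). The part of these cells in the interaction was not tested. With the macrophage marker score described next as a covariate, 0 of the 8 receptor genes passed for the interaction (edgeR, 0 at an unadjusted p under 0.05; DESeq2 was not run with this score).

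The macrophage markers moved with the receptors. The summed level of 12 markers was 3037 to 3599 CPM in isotype tumors and 3445 to 6649 CPM in aPD1 tumors. It was 2635 to 3202 CPM with aGM-CSF, 2463 to 3422 CPM with aIL2RB and 2039 to 4488 CPM with both antibodies. Of the 12 markers, 10 were higher in aPD1 than in isotype and 10 were lower than in aPD1 in each blocking group. When the mean log2 level of these markers was added to the model as a covariate, 0 of the 8 receptor genes passed the threshold for aPD1 against isotype or for any blocking group against aPD1 (edgeR, with 3, 2, 1 and 2 genes at an unadjusted p under 0.05; DESeq2 was not run with this score). The score itself differed between the groups compared. Over all genes the same fit called 0, 2, 265 and 290 genes in these 4 comparisons, where the model of groups alone called 1475, 2289, 4647 and 4634. The differences that remained were largest for Clec4n and Clec7a: -0.69 ± 0.19 for Clec4n with aGM-CSF (adjusted p = 0.237), -0.64 ± 0.20 for Clec4n with both (adjusted p = 0.0861) and -0.66 ± 0.35 for Clec7a with both (adjusted p = 0.327). Between aIL2RB and aGM-CSF, Clec12a, Clec4a1 and Clec4a3 were lower in this fit (-0.57, -0.56 and -0.47, edgeR, adjusted p = 0.000358, 0.00141 and 0.00318) and Clec4n was higher (0.51, adjusted p = 0.0151), beside 1.91% of all genes lower and 1.01% higher.

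**Figure D3:**
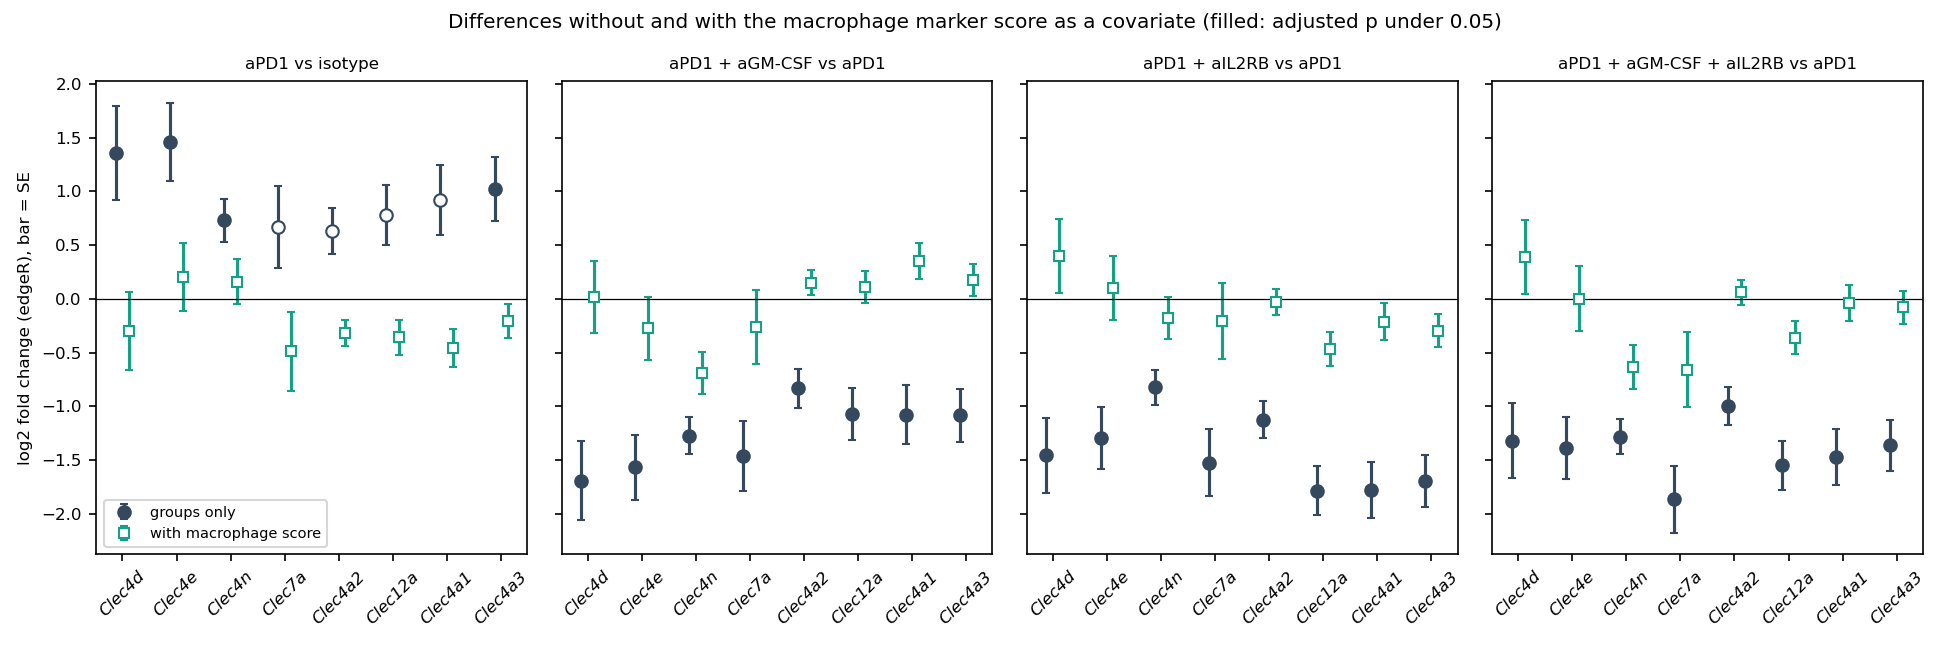
Log2 fold change (vertical axis, SE as bars) of each receptor gene in 4 comparisons, from the model of groups alone (circles) and with the macrophage marker score as a covariate (squares). Filled symbols passed an adjusted p of 0.05. All squares are open and lie between -0.69 and 0.40.

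The levels of other cell type markers stand beside these differences, and their part in them was not tested. The pan-leukocyte gene Ptprc was 0.97 ± 0.25 higher in aPD1 than in isotype (edgeR, adjusted p = 0.013). The summed T or NK cell markers had medians of 40.7 CPM in isotype, 74.9 in aPD1, 33.7 with aGM-CSF, 8.10 with aIL2RB and 10.4 with both antibodies. Of these 8 markers edgeR called 0 between aPD1 and isotype (1 at an unadjusted p under 0.05; DESeq2 called 0) and 0 between aGM-CSF and aPD1 (8 at an unadjusted p under 0.05; DESeq2 called 3, all lower), while 7 were lower than in aPD1 with aIL2RB and 8 with both antibodies. The summed markers of type 2 dendritic cells had medians of 251 CPM in isotype, 349 in aPD1 and 227, 200 and 205 in the blocking groups. For type 1 dendritic cells the medians were 145 CPM in isotype, 206 in aPD1 and 147, 127 and 117 in the blocking groups. Of 6 fibroblast markers, 3 were higher in aPD1 than in isotype and 1 was lower. Of 5 endothelial markers, 2 were higher (6.17% of all genes were higher and 2.54% lower). The sum of 10 granulocytic markers had medians of 109 CPM in isotype, 132 in aPD1 and 105, 102 and 99.6 in the blocking groups, and Retnlg, Ly6g and Camp were at 0 in some tumors of every group. Of the 6 that could be tested, Csf3r was higher in aPD1 than in isotype (1.49 ± 0.30, edgeR, adjusted p = 0.0021). Csf3r, Cxcr2, S100a9 and Mmp8 were lower than in aPD1 with aGM-CSF (median of the 6 genes -1.58), Csf3r with aIL2RB (median -0.79) and Csf3r, Mmp8, Gsr and Cxcr2 with both antibodies (median -1.18). The summed markers of Ly6C monocytes had medians of 1379 CPM in isotype, 1693 in aPD1 and 2204, 2818 and 2742 in the blocking groups. Fn1 made up most of that sum (means of 1224 CPM in isotype and 2472 CPM with both antibodies), while Ly6c2 itself was 1.91 ± 0.63 higher in aPD1 than in isotype (adjusted p = 0.047).

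Clec7a and Clec4n differed between the sets of replicate numbers in addition to the groups. Both were lower in the second set, at -0.88 ± 0.15 and -0.35 ± 0.09 (edgeR, adjusted p = 5.2e-05 and 0.0043), beside 11.5% of all genes. The sets were chosen with earlier results of these data known, so these p-values are not those of a split fixed beforehand. The difference of Clec7a was wide in the group with both antibodies, at 23.6 to 44.3 CPM in the first set and 5.95 to 12.0 CPM in the second. In that group Clec4n was at 17.1 to 23 CPM in the first set and at 10.2 to 14.02 CPM in the second. Cell type markers differed between the sets as well. Of the 6 MC38 markers, Krt8, Krt18, Krt19 and Epcam were higher in the second set (median 3.16), and of the 8 T or NK markers, Cd4, Cd8a, Cd3e, Cd3d and Nkg7 were lower (median -0.98). Of the 12 macrophage markers Apoe, Mertk and Lyz2 were lower (median -0.087). Their part in the differences of Clec7a and Clec4n was not tested.

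Within the sets, the falls under blocking antibodies kept their direction for all 8 genes. In the second set (3 isotype and 3 aPD1 tumors) 5 genes were higher in aPD1 than in isotype, Clec4e, Clec4a1, Clec4a2, Clec4a3 and Clec12a, beside 9.33% of all genes tested in that set. Clec4n and Clec4d missed the threshold there (edgeR, adjusted p = 0.0503 and 0.0872). All 8 were lower than in aPD1 in each blocking group of the second set, beside 11.1%, 13.3% and 16.7% of all genes with aGM-CSF, aIL2RB and both antibodies. In the first set (2 isotype and 3 aPD1 tumors) 0 genes were higher in aPD1 (edgeR, 4 at an unadjusted p under 0.05; DESeq2 was not run within sets), as was 1 of all 17400 genes tested in that set. In that set 2, 7 and 2 of the 8 genes were lower than in aPD1 with aGM-CSF, aIL2RB and both antibodies, beside 0.069%, 8.84% and 2.45% of all genes. Clec4n and Clec7a were the genes called in both sets in each of these 3 comparisons. The difference between both antibodies and aPD1 was itself larger in the second set for Clec4a1 (-2.04, edgeR, adjusted p = 0.002), Clec4a3 (-1.82, 0.0027), Clec4a2 (-1.33, 0.0048), Clec12a (-1.57, 0.0071) and Clec4d (-2.09, 0.0181). Over all genes, 1554 of 16932 (9.18%) differed between the sets in this comparison. The first set holds replicate 1 of the group with both antibodies, its highest tumor for all 8 genes, and replicate 4, the tumor with 7155486 counts. The difference between the sets was not fitted without these tumors. Within the sets alone, the interaction of the antibodies was called for 1 gene in each, Clec4n in the first and Clec4a3 in the second (1.09 and 0.93, edgeR, adjusted p = 0.0474 and 0.0242), beside 0.0862% and 4.14% of all genes in this direction.

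**Figure D4:**
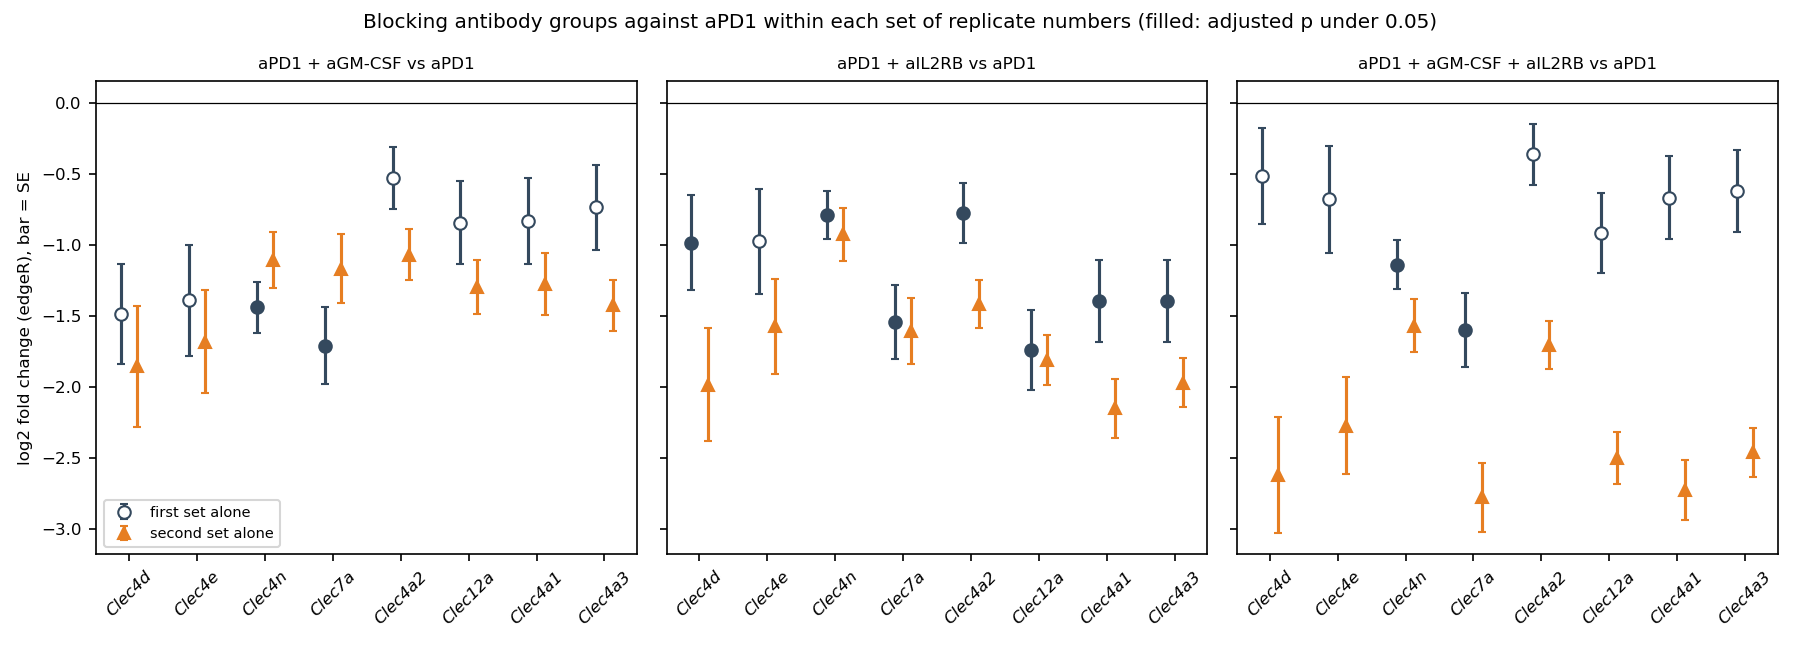
Log2 fold change (vertical axis, SE as bars) of each receptor gene for each blocking group against aPD1, within the first set (circles) and the second set (triangles) of replicate numbers. Filled symbols passed an adjusted p of 0.05. With both antibodies the first set lies between -1.60 and -0.36 and the second between -2.78 and -1.57.

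The genes that varied most alike over the 42 tumors were those of the DCIR family and Clec12a. Spearman's rho was 0.91 to 0.96 among Clec4a1, Clec4a2, Clec4a3 and Clec12a, 0.83 between Clec4n and Clec7a and 0.76 between Clec4d and Clec4e. The lowest value was 0.48, between Clec4a2 and Clec4n. Deviations from the group means gave Pearson's r of 0.86 to 0.93 among the first 4 genes, 0.82 for Clec4n and Clec7a and 0.76 for Clec4d and Clec4e, while Clec4d reached 0.78 with Clec4a1. These values are descriptions over tumors that share libraries, treatments and sets.

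**Figure D5:**
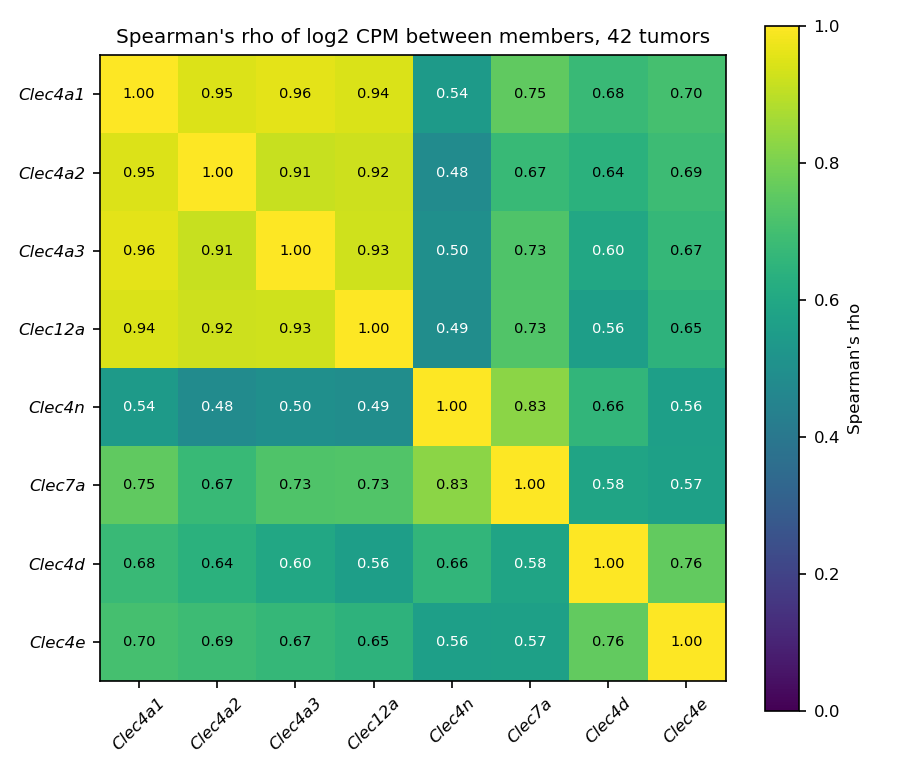
Spearman's rho of log2 CPM for each pair of the 8 genes over 42 tumors, printed in each cell and shown by color from 0 to 1. The block of Clec4a1, Clec4a2, Clec4a3 and Clec12a lies at 0.91 to 0.96, and Clec4n lies at 0.48 to 0.54 with these 4 genes.

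The 3 genes most like each receptor were sought among 12434 genes with a mean log2 CPM of at least 1. Ctsh (cathepsin H) was most like Clec4a1 (rho 0.98) and Clec4a2 (0.93), and Pld4 was most like Clec4a3 (0.97). Clec12a was closest to AW112010, Cd52 and Selplg (each 0.96). Clec4n was closest to Fcgr2b, the inhibitory Fc receptor (0.89), and to Lyz2 (0.84). Clec7a was closest to the arginine transporter Slc7a2 (0.88) and to Cd84 (0.87). By deviations from group means, the gene most like Clec7a was Csf2rb2 (r 0.89), a receptor chain whose reads can be shared with Csf2rb. Clec4d was closest to guanine deaminase Gda (rho 0.87), and Clec4e to the interleukin 1 receptor antagonist Il1rn (rho 0.87). All values are over 42 tumors.

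Of 19 genes that carry signals of the activating receptors, 12 were higher in aPD1 than in isotype, and 13, 15 and 14 were lower than in aPD1 with aGM-CSF, aIL2RB and both antibodies. Over all genes the corresponding shares were 6.17%, 8.75%, 14.5% and 14.3%, which also stand beside the lists that follow. Syk, the kinase used by all 4 activating receptors, had means of 44.2 CPM in isotype, 90.3 in aPD1 and 44.2, 38.8 and 43.2 in the blocking groups. It rose by 1.03 ± 0.22 under aPD1 (edgeR, adjusted p = 0.0033). Fcer1g rose by 0.73 ± 0.20 (adjusted p = 0.018) and Card9 by 0.59 ± 0.15 (adjusted p = 0.012). The median of the 19 genes was 0.59 under aPD1 and -0.53, -0.73 and -0.68 in the blocking groups against aPD1.

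Of the 8 genes that act downstream of inhibitory receptors, 3 were higher under aPD1, and 5, 7 and 7 were lower in the blocking groups than in aPD1. Ptpn6, the phosphatase SHP-1, rose by 0.82 ± 0.20 (edgeR, adjusted p = 0.0091), and Inpp5d, the phosphatase SHIP1, by 0.63 ± 0.13 (adjusted p = 0.0027). Dok2 was 0.46 ± 0.20 higher (adjusted p = 0.15), which did not pass, and was lower than in aPD1, at -1.34 ± 0.17 with both antibodies (adjusted p = 2.4e-07). With both antibodies, Dok2 and Ubash3b were also lower than with isotype.

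Of 15 genes known to be induced through these receptors, 1 was higher in aPD1 than in isotype, a share near that of all genes. This was Tnf, by 1.07 ± 0.31 (edgeR, adjusted p = 0.024). Il1b was 1.04 ± 0.36 higher (adjusted p = 0.059) and did not pass. In the blocking groups 5, 6 and 9 of the 15 were lower than in aPD1, among them Tnf, Nlrp3 and Ccl3 in each. The median of the list was 0.69 under aPD1 and -0.65, -0.79 and -0.99 in the blocking groups.

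Of 24 other C-type lectin-like genes tested, 3 were higher in aPD1 than in isotype (Cd69, Cd302 and Mrc1), and 7, 12 and 11 were lower than in aPD1 in the blocking groups, while 2 were higher in each. Over all genes 4.77%, 13% and 13.1% were called higher in these comparisons. The 2 that were higher were Mrc2, a collagen receptor, and Clec1a. Mrc2 was at 29.4 CPM in aPD1 and 35.1, 50.8 and 50.6 CPM in the blocking groups (0.25 ± 0.09, 0.79 ± 0.09 and 0.78 ± 0.09, edgeR, adjusted p = 0.044, 1.6e-08 and 2.1e-08). Mrc1, the mannose receptor of macrophages, was at 156 CPM in aPD1 and fell to 111 CPM with aGM-CSF (-0.49 ± 0.13, adjusted p = 0.0072), while its difference with aIL2RB was -0.12 ± 0.12 (adjusted p = 0.51). The myeloid receptor Clec5a was lower than in aPD1 in each blocking group, at -0.50 ± 0.15, -0.45 ± 0.14 and -0.51 ± 0.14 (adjusted p = 0.02, 0.015 and 0.0064).

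Of the receptor chains for GM-CSF and IL-2, Csf2rb, the β chain of the GM-CSF receptor, rose by 0.98 ± 0.23 under aPD1 (edgeR, adjusted p = 0.0074) and was lower than in aPD1, at -0.92 ± 0.20, -1.05 ± 0.19 and -1.17 ± 0.19 (adjusted p = 0.0016, 3.6e-05 and 9.9e-06). Il2rb, the IL2RB gene, was at 41.9 CPM in aPD1, 19.2 with aGM-CSF, 3.63 with aIL2RB and 4.89 with both, and fell by 3.55 ± 0.48 with aIL2RB (adjusted p = 5.2e-07). Of 15 transcription factors of myeloid cells, 4 were higher under aPD1 and 6, 9 and 8 were lower in the blocking groups than in aPD1. Spi1, which encodes PU.1, rose by 0.62 ± 0.15 (edgeR, adjusted p = 0.0086), and Irf8 by 0.84 ± 0.21 (adjusted p = 0.011).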

How the data were processed

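RNA of 42 tumors was sequenced by the authors from poly(A) libraries (paired-end reads of 100 bases). Per the labels and the methods of the study, the authors aligned reads with bowtie (version 1.2.3 in the submitters' processing notes) to the transcriptomes of 8 founder strains of the mouse cross and estimated counts with gbrs on GENCODE release 23. The deposited values are expected counts per gene, summed over haplotypes and not normalized, and 15.2% of them are not whole (tolerance 1e-06), since reads shared between genes are divided. Of the 26811 identifiers, 26629 had a symbol. Gene coordinates came from GENCODE release 21 of the same build.

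Counts were rounded, and genes were kept by filterByExpr (minimum count 10, minimum total 15). All tumors were fitted in 1 model with TMM factors and the quasi-likelihood test of edgeR 4.0.16 in R 4.3.3, with Benjamini-Hochberg adjustment over 16932 genes for each of 10 pairs of groups, the interaction and the set of replicate numbers. The SE was the log2 fold change divided by the square root of F. DESeq2 1.42.0 was an alternative, as were other size factors and filters, counts not rounded, only the groups compared, the replicate number as a block, the set as a term, each set alone, the macrophage score, omission of 5 rRNA genes (1.72% to 17.9% of counts), the sum of Clec4a2 and Clec4a4, and each tumor left out. The fits were tested on simulated data. CPM, Spearman's rho and list counts were computed in Python 3.11.15 with pandas 2.3.3. Values are given for every member. Other genes come from fixed lists of signaling genes, lectins and cell type markers or are named by likeness (the first 3 by each measure). At most 4 genes were described per list and comparison, except for the 5 T or NK markers that were lower in the second set. The members, lists and sets were chosen with earlier results of these data known. Replicate numbers were not treated as pairs. Depth limits precision most in the tumor with 7155486 counts.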

Additional observations from a re-analysis of the deposited data

Results flagged for a closer look

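Clec7a in aPD1 replicate 1 was at 180.5 CPM, and its distance to the next tumor was 0.697 of the range of the group, above the limit of 0.625 for 6 tumors. This was 1 of 24 combinations of a gene and a group of 5 to 9 tumors, and chance gives about 1 in 20.

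The effect of aGM-CSF differed with and without aIL2RB under aPD1 (interaction term, edgeR) for Clec4a1 (1.38, adjusted p = 0.0146), Clec4a2 (0.96, adjusted p = 0.0103), Clec4a3 (1.42, adjusted p = 0.0068), Clec4d (1.83, adjusted p = 0.0143), Clec4e (1.48, adjusted p = 0.0171), Clec4n (0.82, adjusted p = 0.0197) and Clec12a (1.31, adjusted p = 0.0086). Of all genes, 5.29% were called in this direction. The number of receptor genes called fell to 4 with the replicate number as a block, to 1 in each set alone and to 0 with the macrophage score.

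Some differences between groups were not the same in the second and the first set of replicate numbers (edgeR, second minus first set). Between both antibodies and aPD1 this was -2.09 for Clec4d, -1.33 for Clec4a2, -1.82 for Clec4a3, -2.04 for Clec4a1 and -1.57 for Clec12a (adjusted p = 0.0181, 0.0048, 0.0027, 0.002 and 0.0071). Against isotype it was -2.93 for Clec4d and -1.92 for Clec4a1 (adjusted p = 0.025 and 0.0282). Against aPD1 + aGM-CSF the group with both antibodies gave -1.61 for Clec4a1 and -1.72 for Clec7a (adjusted p = 0.0277 and 0.0239). Against aPD1 + aIL2RB the same group gave -1.27 for Clec4a3, -1.30 for Clec4a1 and -1.52 for Clec12a (adjusted p = 0.0332, 0.0393 and 0.0171). Of all genes, 9.18%, 1.1%, 0.821% and 1.94% differed between the sets in these comparisons, in the same order. The comparison with isotype rests on 2 isotype tumors in the first set and 3 in the second.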

How the results depend on the processing

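The falls of the 8 genes against aPD1 kept their count in each blocking group under every normalization, filter and tool run, with the replicate number as a block, with the set as a term and without each tumor (8 to 8), but not with the macrophage score or in the first set. With the macrophage score the counts called were 0 for aPD1 against isotype, 0 for each blocking group against aPD1 and 0 for the interaction, while they were 4 for aIL2RB and 5 for both antibodies against isotype (2.79% and 7.08% of all genes were lower), and 4 for aIL2RB and 2 for both against aGM-CSF (1.91% and 2.77% lower). Of the 4 for aIL2RB against aGM-CSF, 3 were lower and 1 was higher, beside 1.01% of all genes higher. The first set alone gave 0 for aPD1 against isotype, 2 for aGM-CSF and 2 for both against aPD1, 0 for aIL2RB and 0 for both against isotype, 1 for aIL2RB against aGM-CSF and 1 for the interaction (for the counts above 0, 0.069% and 2.45% of all genes lower, 0.885% higher and 0.0862% above 0). The second set alone gave 4 for aIL2RB and 7 for both against isotype, 5 for both against aGM-CSF, 2 for both against aIL2RB and 1 for the interaction (0.783%, 6.52%, 4.93% and 1.51% of all genes lower, and 4.14% above 0 for the interaction). With the groups compared alone in the fit, the counts were 2 for aGM-CSF, 4 for aIL2RB and 1 for both against isotype, and 4 for aIL2RB against aGM-CSF (0.0193%, 1.47%, 3.6% and 1.92% of all genes lower). Of these last 4 genes, 3 were lower and 1 was higher, beside 1.22% of all genes higher. With the set as a term, 3 genes were called for aIL2RB against isotype (2.1% of all genes lower). Leaving out each tumor gave 1 to 7 for aPD1 against isotype, 0 to 0 for aGM-CSF, 0 to 2 for aIL2RB and 0 to 5 for both against isotype, 0 to 1 for aIL2RB and 0 to 1 for both against aGM-CSF, 0 to 0 for both against aIL2RB, 4 to 8 for the interaction and 2 to 2 for the sets. The causes were not tested.

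With the replicate number as a block, 1 gene was called for aIL2RB against aGM-CSF (Clec4n, 0.48, edgeR, adjusted p = 0.047; 0.921% of all genes higher) and 4 for the interaction (2.76% above 0), where Clec4a1, Clec4d and Clec12a missed the threshold (1.03, 1.48 and 1.08, adjusted p = 0.0903, 0.0513 and 0.0547), and the other counts stayed within 1.5 times. Tumors of the same number did not deviate together in every pair (r from -0.168 to 0.193), so that the numbers were not taken as pairs. Taken first are the comparisons that include the aPD1 group, the interaction and any other value at an unadjusted p under 0.05. Among these, signs changed with the macrophage score and, in 1 value, in the second set, all short of the threshold. For aPD1 against isotype these were -0.46 for Clec4a1, -0.32 for Clec4a2, -0.20 for Clec4a3, -0.30 for Clec4d, -0.49 for Clec7a and -0.36 for Clec12a. For aGM-CSF against aPD1 they were 0.35 for Clec4a1, 0.15 for Clec4a2, 0.18 for Clec4a3, 0.018 for Clec4d and 0.11 for Clec12a. For aIL2RB against aPD1 they were 0.40 for Clec4d and 0.10 for Clec4e, and for both against aPD1 0.059 for Clec4a2, 0.39 for Clec4d and 0.0026 for Clec4e. For the interaction they were -0.18 for Clec4a1, -0.059 for Clec4a2, -0.029 for Clec4d, -0.19 for Clec7a and -0.0033 for Clec12a, and -0.0033 for Clec7a in the second set. Of the other 38 values, each at an unadjusted p of 0.05 or more, 29 changed sign in some alternative and 8 passed the threshold in some alternative.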
